A study of Mus musculus with 16 samples.

Results

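Clusterin, ficolin A and the complement genes were followed as 9 named genes, *Clu*, *Fcna*, *C3*, *Cfb*, *C1s1*, *C1ra*, *Cd55*, *Cd59a* and *Serping1*, out of 20622 genes in the tables. The members were chosen by the RPF values of these same libraries, because *Clu* had the most ribosome-protected fragments (RPFs) of any gene and *Fcna* the smallest p-value for higher RPFs in the eIF4A2-depleted cells. The contrast between the cell lines therefore chose the members, so their levels and fold changes are given as a description, without a test. All 9 were in the tables, and 5 of them (*Clu*, *Fcna*, *C3*, *Cd55* and *Cd59a*) had enough counts to be fitted, in RPFs and in total RNA alike.

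RPFs and cytoplasmic total RNA had been collected from KMNTC and KM4A2cr cells, in 4 replicates of each line and kind and 16 libraries in all. KM cells are lung tumour cells of KrasLSL-G12D/WT; Rosa26LSL-MYC/LSL-MYC genotype, and both lines come from 1 male mouse at clinical endpoint. KMNTC cells carry a non-targeting guide and KM4A2cr cells a guide against the coding region of *Eif4a2*, each delivered with Cas9 by lentivirus and selected with puromycin, and KM4A2cr is a pool of 4 eIF4A2-negative clones. The cells were untreated, and the replicates were plated and harvested on different days, with RPFs and total RNA of a replicate taken from 1 lysate.

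The RPF libraries held between 4512403 and 9621848 counts and the total RNA libraries between 5350920 and 9312624. RPFs of *Eif4a2*, the targeted gene, fell by 0.49 on the log2 scale (standard error, SE, 0.15, adjusted p = 0.0941, Benjamini-Hochberg over all genes, from the quasi-likelihood test of edgeR), and its total RNA was at -0.18 (adjusted p = 0.504). The *Eif4a2* call in RPFs was lost without replicate 1 (edgeR adjusted p = 0.300), without replicate 2 (0.377) and without replicate 3 (0.351). The 5 epithelial marker genes were present in every library, with a summed RPF level of 6814 to 11295 CPM. *Sftpc* and *Sftpb*, which define alveolar type II cells, were at 0 in all 16, so that list rested on *Abca3*. Among its checks of KM cell identity the study lists expression of surfactant protein C, the product of *Sftpc*. The counts here are RNA and footprints of the derived KMNTC and KM4A2cr lines, and the reason for the difference was not tested. Of the macrophage list, *Marco* was at 0 throughout and *Cd68* led, with a summed level of 165 to 832 CPM in KMNTC and 227 to 722 CPM in KM4A2cr RPFs. Replicate 4 stood apart from the rest. Its *Cd68* level lay 2.92 above the mean of the other days on the log2 scale in RPFs, while *Mrc1* and *Cd14* of the same list lay at -2.38 and -1.11 relative to that mean. Leaving replicate 4 out raised the number of called genes in RPFs from 1062 to 3469, so values without replicate 4 are given below.

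Complement is a cascade of blood proteins that marks and lyses foreign or damaged cells. It starts from C1q with the proteases C1r and C1s, from lectins and ficolins with MASP proteases, or from C3 with factor B, and all routes meet at the cleavage of C3. Cells protect themselves with the surface proteins CD55, which breaks up the enzymes that cleave C3, and CD59, which blocks the final pore, while C1 inhibitor (*Serping1*) and clusterin act in solution. Clusterin is also a secreted chaperone that is plentiful in epithelia, and the lung epithelium is known to make some complement proteins of its own.

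RefSeq promoter windows (GRCm38.p6, 250 bases before to 50 after the start site) were matched for 6 of the 9 members. Those of *Fcna* (chr2:25627925-25628224, minus strand) and *Cd55* (chr1:130462695-130462994, minus strand) are shown because these members had higher levels in KM4A2cr in all 4 pairs, and that of *C3* (chr17:57228087-57228386, minus strand) because it had the most motif matches. Capitals mark matches on either strand to TTNNGNAA, a loose C/EBP motif, or, near the end of the *C3* window, to TATAAA, the TATA box.
Fcna: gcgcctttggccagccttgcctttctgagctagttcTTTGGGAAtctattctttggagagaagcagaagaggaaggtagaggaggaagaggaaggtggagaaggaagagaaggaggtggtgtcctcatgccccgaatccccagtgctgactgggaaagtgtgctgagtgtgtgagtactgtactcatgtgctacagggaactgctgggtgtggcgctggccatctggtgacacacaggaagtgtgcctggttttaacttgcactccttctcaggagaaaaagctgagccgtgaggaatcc
Cd55: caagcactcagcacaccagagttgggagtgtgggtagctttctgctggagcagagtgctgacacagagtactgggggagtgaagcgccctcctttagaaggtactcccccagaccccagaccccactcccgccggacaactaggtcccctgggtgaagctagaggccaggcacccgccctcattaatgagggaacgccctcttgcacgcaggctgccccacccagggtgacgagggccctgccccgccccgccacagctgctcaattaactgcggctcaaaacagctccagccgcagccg
C3: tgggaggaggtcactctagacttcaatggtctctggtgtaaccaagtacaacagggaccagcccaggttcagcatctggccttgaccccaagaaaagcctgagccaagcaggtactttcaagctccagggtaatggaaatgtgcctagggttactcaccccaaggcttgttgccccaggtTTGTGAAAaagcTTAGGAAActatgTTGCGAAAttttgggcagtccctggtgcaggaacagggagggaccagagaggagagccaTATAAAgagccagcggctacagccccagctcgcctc
With the start site as position 1 and no position 0, the *Fcna* window held 1 C/EBP match at -214. The *C3* window held matches at -70, -58 and -45, the last on both strands. The TATA box of the *C3* window lay at 15, downstream of the start RefSeq gives. The *Cd55* window held none of the 4 motifs searched on both strands, which also included AP-1 (TGANTCA) and the E-box CACGTG. The C/EBP letters occur in 40.7% of all 32851 promoter windows and were in 4 of the 6 members' windows. AP-1 is in 7.81% of all windows, the E-box in 7.15% and the TATA box in 13.6%. A match describes letters only, and no binding was measured.

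*Clu* (ENSMUSG00000022037.16, chromosome 14), the extracellular chaperone clusterin, had the highest RPF level of all genes, at a mean of 11744.3 CPM (counts scaled to the TMM-normalised library size) over 8 libraries, ahead of *Itgb1* with 9041.3 and *Ctsl* with 8441.67. Its RPFs were 9173, 7868, 13608 and 13038 CPM in KMNTC replicates 1 to 4 and 13411, 10135, 14590 and 12132 CPM in KM4A2cr. KM4A2cr was higher in pairs 1 to 3 and lower in pair 4, and the ranges overlapped. *Clu* alone took 1.12% ± 0.174 of the RPF counts in KMNTC and 1.20% ± 0.166 in KM4A2cr (SD, n = 4). Its total RNA was 5512, 3463, 5949 and 5067 CPM in KMNTC and 9892, 4924, 8998 and 4379 CPM in KM4A2cr, again higher in 3 pairs and overlapping. The log2 fold change was 0.23 (SE 0.15) in RPFs and 0.44 (SE 0.25) in total RNA. Without replicate 4 these became 0.34 and 0.64.

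*Fcna* (ENSMUSG00000026938.11, chromosome 2), the secreted lectin ficolin A, had a larger difference between the lines. It had 14.0, 9.63, 15.5 and 28.3 CPM of RPFs in KMNTC and 66.9, 57.0, 91.8 and 97.2 CPM in KM4A2cr. Every KM4A2cr library lay above every KMNTC library, a separation in that direction seen in 0.981% of the 10291 genes tested. In total RNA the values were 3.79, 1.80, 3.52 and 6.32 CPM in KMNTC and 13.6, 13.1, 20.6 and 19.4 CPM in KM4A2cr. The groups did not overlap there either, as in 0.938% of 10880 genes in that direction. These levels rest on 97 to 155 RPF counts per KMNTC library and 361 to 654 per KM4A2cr library, and on 20 to 33 and 83 to 109 counts in total RNA. The log2 fold changes were 2.29 (SE 0.17, 4.88-fold) in RPFs and 2.20 (SE 0.22, 4.59-fold) in total RNA. The pair differences spanned 1.77 to 2.55 for RPFs and 1.57 to 2.68 for total RNA, and in both kinds the smallest was that of pair 4. Without replicate 4 the log2 fold changes were 2.45 and 2.41. Among the rises in RPFs, *Fcna* had the smallest p-value and was 9th in size, and the next by p-value were *Acp5*, *Pcdh7* and *Vim*. In total RNA it was 12th by p-value. Its neighbour in kind *Fcnb*, the other mouse ficolin, had 0 RPF counts and 1 total RNA count over all libraries. The median log2 fold change of the 833 tested genes of chromosome 2 was -0.21 in RPFs, opposite in sign to that of *Fcna*. Macrophages are a known source of ficolin A. Of the macrophage list, *Cd68*, *Cd14* and *Mrc1* had 11305, 3452 and 2871 RPF counts over the 8 libraries, *Ptprc* and *Csf1r* had 77 and 47, *Adgre1* and *Lyz2* had 2 and 1, and *Marco* and *Fcer1g* had 0. The part of such cells in the *Fcna* level was not tested.

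*C3* (ENSMUSG00000024164.16, chromosome 17), the central component of the cascade, had 82.6, 101, 150 and 169 CPM of RPFs in KMNTC and 89.1, 85.1, 86.4 and 69.7 CPM in KM4A2cr. The KM4A2cr libraries lay close together, while those of KMNTC spread more widely, and the ranges overlapped. Total RNA gave 36.2, 42.0, 60.6 and 68.6 CPM in KMNTC and 40.1, 34.1, 31.8 and 32.96 CPM in KM4A2cr. Pair 1 was slightly higher in KM4A2cr and the other pairs were lower, with log2 pair differences between -1.27 and 0.11 for RPFs and between -1.05 and 0.15 for total RNA. The log2 fold changes were -0.55 (SE 0.21) and -0.53 (SE 0.19), and -0.31 and -0.37 without replicate 4.

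The members for the proteases *C1ra*, *C1s1* and *Cfb* and for C1 inhibitor had few counts. *C1ra* (ENSMUSG00000055172.11) and *C1s1* (ENSMUSG00000038521.18), the proteases of the first component on chromosome 6, had 27 and 6 RPF counts over the 8 libraries, and 23 and 13 counts of total RNA. For *C1ra* the RPF counts were 19 in KMNTC and 8 in KM4A2cr, and 15 and 8 in total RNA. *Cfb* (ENSMUSG00000090231.11, chromosome 17), the protease of the alternative route, had 0 RPF counts in KMNTC and 5 in KM4A2cr. *Serping1* (ENSMUSG00000023224.13, chromosome 2), which inhibits C1r and C1s, had 2 and 0. At these depths 3 counts over the 4 libraries of a group correspond to 0.0904 CPM of RPFs in KMNTC and 0.110 CPM in KM4A2cr, and these 4 genes were too shallow to compare between the lines. Their close copies *C1rb* and *C1s2*, with which reads may be exchanged, had 55 and 6 RPF counts.

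*Cd55* (ENSMUSG00000026399.13, chromosome 1), the decay-accelerating factor on the cell surface, had 22.2, 30.9, 39.4 and 92.1 CPM of RPFs in KMNTC and 37.6, 51.4, 79.7 and 141 CPM in KM4A2cr. The ranges overlapped between lines because the days differed, yet KM4A2cr was higher in each of the 4 pairs, by 0.61 to 1.01 on the log2 scale. In total RNA it had 43.9, 47.7, 74.0 and 142 CPM in KMNTC and 63.3, 96.8, 130 and 200 CPM in KM4A2cr, and KM4A2cr was again higher in each pair. The log2 fold changes were 0.78 (SE 0.13) in RPFs and 0.72 (SE 0.13) in total RNA, and 0.84 and 0.79 without replicate 4. *Cd55b*, a second mouse gene for the same kind of protein and no member of the list, passed the test. It rose from 19.9 ± 11.5 to 35.7 ± 19.7 CPM of RPFs (SD, n = 4), up by 0.84 on the log2 scale (SE 0.14, edgeR adjusted p = 0.0147), and by 0.88 in total RNA (edgeR adjusted p = 0.0253). Reads of these paralogues may be exchanged, so the size of either change is uncertain. The *Cd55b* calls were lost without replicate 2 (edgeR adjusted p = 0.138 in RPFs and 0.155 in total RNA) and without replicate 3 (0.168 and 0.249).

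*Cd59a* (ENSMUSG00000032679.13, chromosome 2), the inhibitor of the membrane pore, was scarce. Its RPFs were 2.72, 3.87, 5.34 and 6.29 CPM in KMNTC and 3.14, 4.80, 4.49 and 0.269 CPM in KM4A2cr. The last value is 1 count, against 26 to 39 in the other KM4A2cr libraries, and the total RNA of that lysate was low too, with 3 counts. The log2 fold changes of -0.35 (SE 0.44) in RPFs and -0.29 (SE 0.34) in total RNA were 0.09 and 0.04 without replicate 4. Over all tested genes of chromosome 2 the medians were -0.21 in RPFs and -0.17 in total RNA, with all replicates. The part of this in the *Cd59a* values was not tested. *Cd59b*, its mouse paralogue, had 1179 counts of total RNA and 1 RPF count over all libraries. In TPM it stood at 118 ± 32.3 in KMNTC and 105 ± 35.1 in KM4A2cr, far above *Cd59a* at 4.90 ± 1.71 and 3.80 ± 2.53 (SD, n = 4). RPFs were counted on 1 transcript a gene and within its coding region, and the part of this in the missing *Cd59b* footprints was not tested.

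**Figure D1:**
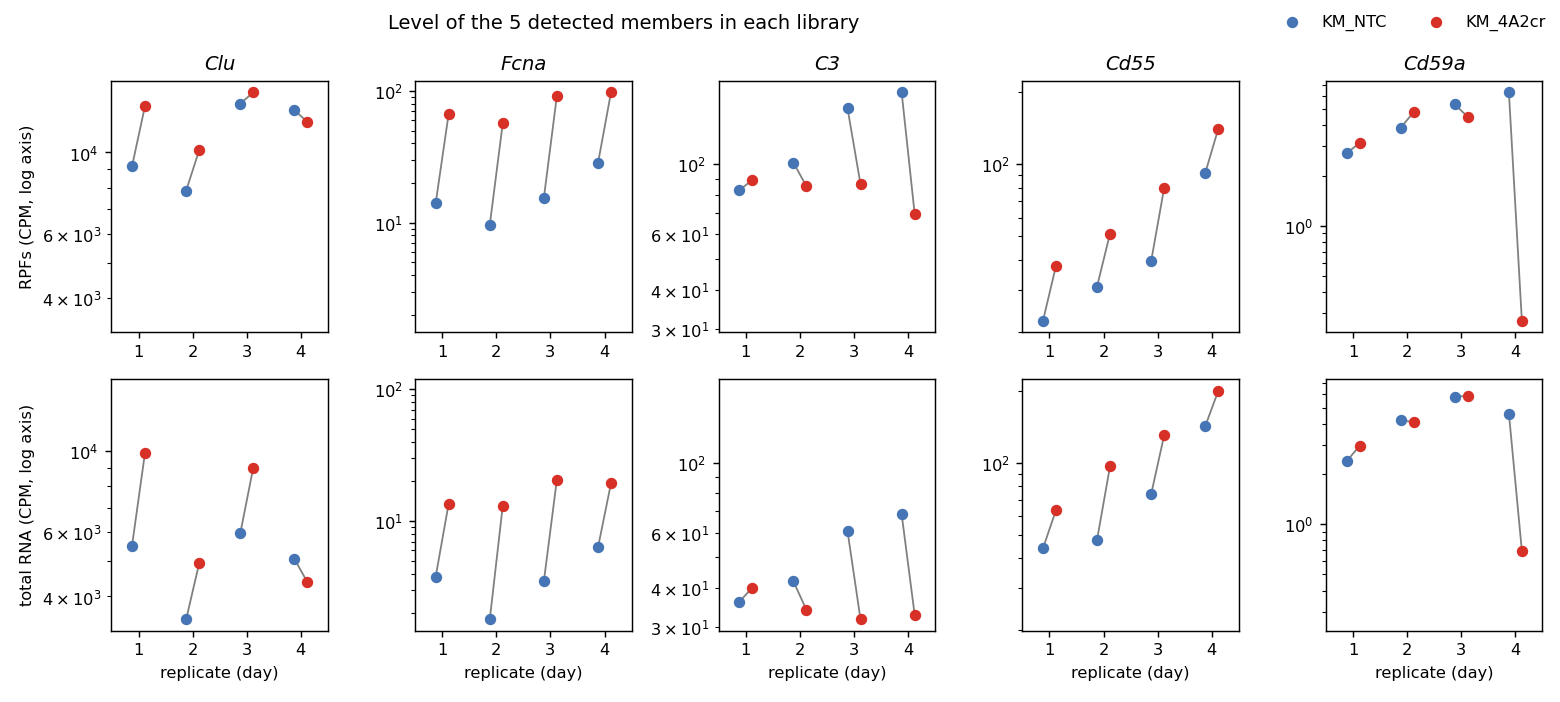
CPM (log axis) of the 5 fitted members in each RPF library (upper row) and total RNA library (lower row), by replicate, with KMNTC in blue and KM4A2cr in red and a line joining the 2 libraries of a replicate. *Fcna* shows no overlap between lines, *Cd55* is higher in KM4A2cr in every pair although the days differ, and the low *Cd59a* point is 1 count in RPFs and 3 in total RNA.

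With the threshold of 0.1 on the adjusted p, 2 of the 5 fitted members passed in RPFs, *Fcna* and *Cd55*, where 10.3% of all 10291 genes passed. The same 2 passed in total RNA, where 6.13% of 10880 genes passed. Since the contrast chose the members, nothing is read from these counts. The median log2 fold change of the 5 was 0.23 in RPFs and 0.44 in total RNA, beside -0.01 and 0.01 over all genes. RNA per cell and the share of cells that express a gene cannot be told apart in these bulk libraries.

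The difference in RPFs and that in total RNA were close to each other for most members. The change in translational efficiency, the log2 fold change of RPFs over that of total RNA, was 0.09 (SE 0.20) for *Fcna*, 0.06 (SE 0.11) for *Cd55*, -0.01 (SE 0.11) for *C3* and -0.05 (SE 0.31) for *Cd59a*. *Clu* was at -0.21 (SE 0.11), and at -0.30 without replicate 4. Of all 9989 genes tested, 2.91% passed for translational efficiency.

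**Figure D2:**
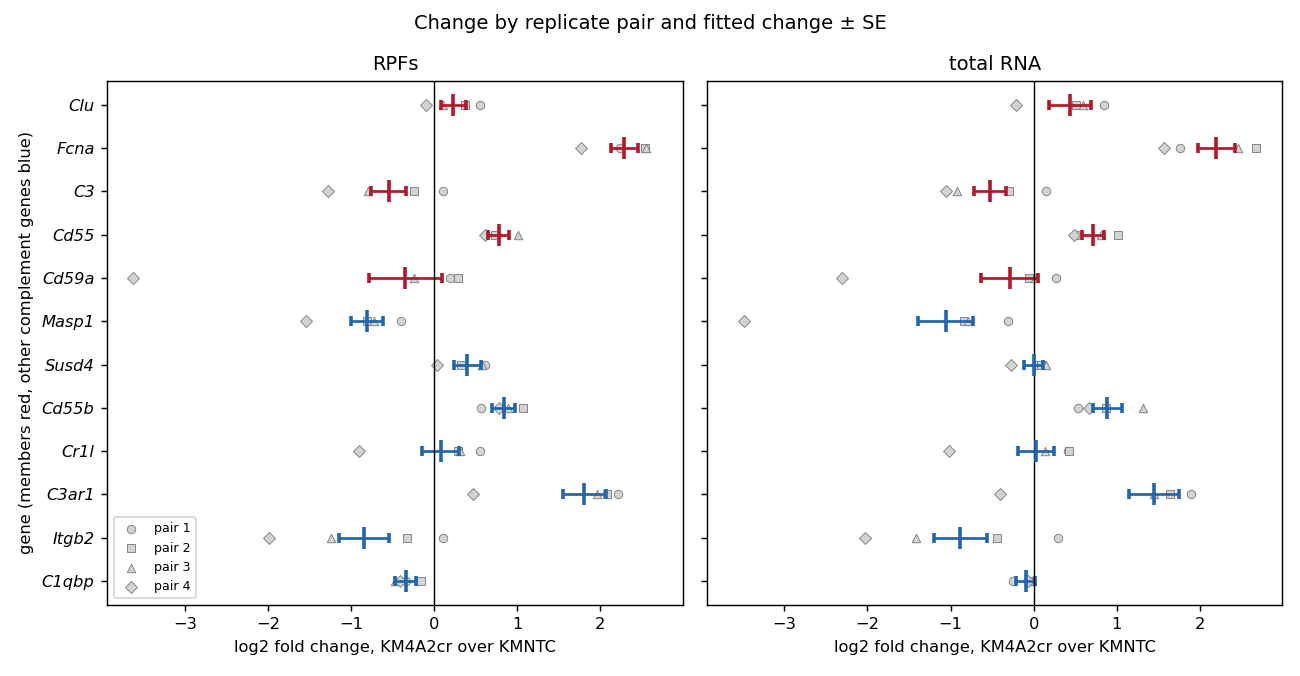
Log2 fold change of KM4A2cr over KMNTC in each replicate pair (grey symbols) and as fitted by edgeR with its standard error (coloured bars), for the 5 fitted members in red and the 7 other complement genes fitted in RPFs in blue, for RPFs (left) and total RNA (right). *Fcna*, *Cd55* and *Cd55b* lie above 0 in all pairs, and pair 4 is the outlying symbol for *Cd59a*, *Masp1*, *Cr1l* and *C3ar1*.

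Levels of different members were compared per length. In the deposited TPM of KMNTC cells, *Clu* stood at 5282 ± 996, *Cd55* at 54.0 ± 23.5, *C3* at 17.9 ± 3.66, *Fcna* at 5.34 ± 1.83 and *Cd59a* at 4.90 ± 1.71 (SD, n = 4), and the last 2 were within each other's spread. In KM4A2cr *Clu* was at 6938 ± 3270, *Cd55* at 76.1 ± 21.1, *Fcna* at 21.3 ± 4.57, *C3* at 11.1 ± 3.05 and *Cd59a* at 3.80 ± 2.53. *Fcna* thus came to lie above *C3*, with 17.2 to 27.7 TPM against 7.09 to 13.6. *Clu* was 18th of all genes in mean TPM and, in RPF CPM per kilobase of transcript, second of 9989 genes after *Wfdc2*, which was picked out once its value was known.

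Footprint density on the mRNA, RPF CPM per kilobase of transcript over TPM, was then set against the gene in the middle of the distribution. It is a value per length of mRNA, not the number of footprints on a whole mRNA. *Fcna* had 5.04 times the density of the median gene (log2 2.33 ± 0.17, SD over 8 lysates), at the 98.2nd percentile of 9989 genes. *C3* was at 2.93 times (1.55 ± 0.11) and *Clu* at 2.31 times (1.21 ± 0.37). *Cd59a* was near the median gene (0.05 ± 0.55), and *Cd55* below it at 0.699 times (-0.52 ± 0.18). *Cd55b* had 2.83 times the density of the median gene, at the 91.9th percentile, against the 33.9th of *Cd55*. Transcript length includes untranslated sequence, so a long one lowers this value, and the part of that in these differences was not tested.

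**Figure D3:**
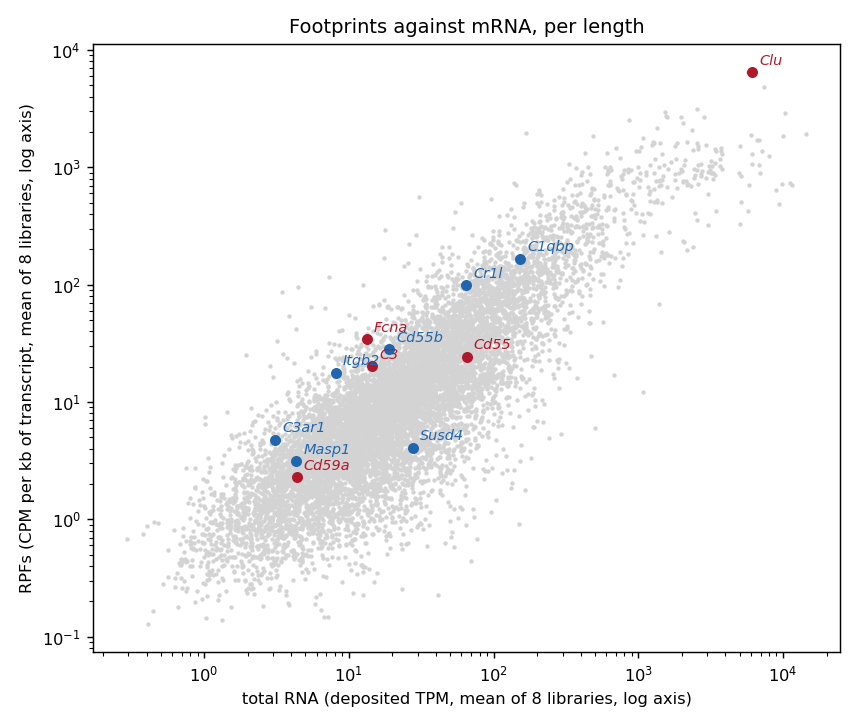
Mean RPF CPM per kilobase of transcript against mean deposited TPM over 8 libraries (both axes log), with all genes in grey, the 5 fitted members in red and other complement genes in blue. *Clu* lies at the upper right corner, *Fcna* and *C3* on the upper side of the cloud and *Cd55* on its lower side.

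The rule that chose the members made no use of differences between days, so these could be tested over both lines. The members' levels moved between days in part. In RPFs *Cd55* (adjusted p = 0.000709), *Fcna* (adjusted p = 0.0144) and *Clu* (adjusted p = 0.0981) differed by edgeR's quasi-likelihood F test, and *C3* (0.540) and *Cd59a* (0.639) did not pass, where 65.9% of all genes passed. In total RNA *Cd55* (adjusted p = 0.000593) and *Fcna* (adjusted p = 0.0749) passed by edgeR, where 61.1% of all genes did. Of the 5, *Cd55* moved most, with a range of 1.97 between the highest and the lowest day on the log2 scale in RPFs and 1.67 in total RNA, against a median of 0.919 and 0.808 over all genes. Its level on day 4 was 1.50 above the mean of the others in RPFs. In RPFs *Fcna* ranged over 1.15 and *Clu* over 0.658, and in total RNA over 1.11 and 0.838. The *Clu* call rests on single days, with an adjusted p of 0.532 without replicate 2 and 0.278 without replicate 3 by edgeR, and 0.121 when scaled by library size only. The *Fcna* calls were lost under that scaling (adjusted p = 0.122 in RPFs and 0.313 in total RNA by edgeR). Its total RNA call was also lost by DESeq2 (adjusted p = 0.120) and without replicate 2 (0.271). Total RNA of *Clu* did not pass by edgeR (adjusted p = 0.126), but did by DESeq2 (0.00390) and, by edgeR, without replicate 4 (2.2e-05). *Cd59a* passed without replicate 4, at an edgeR adjusted p of 0.0926 in RPFs and 0.0134 in total RNA.

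**Figure D4:**
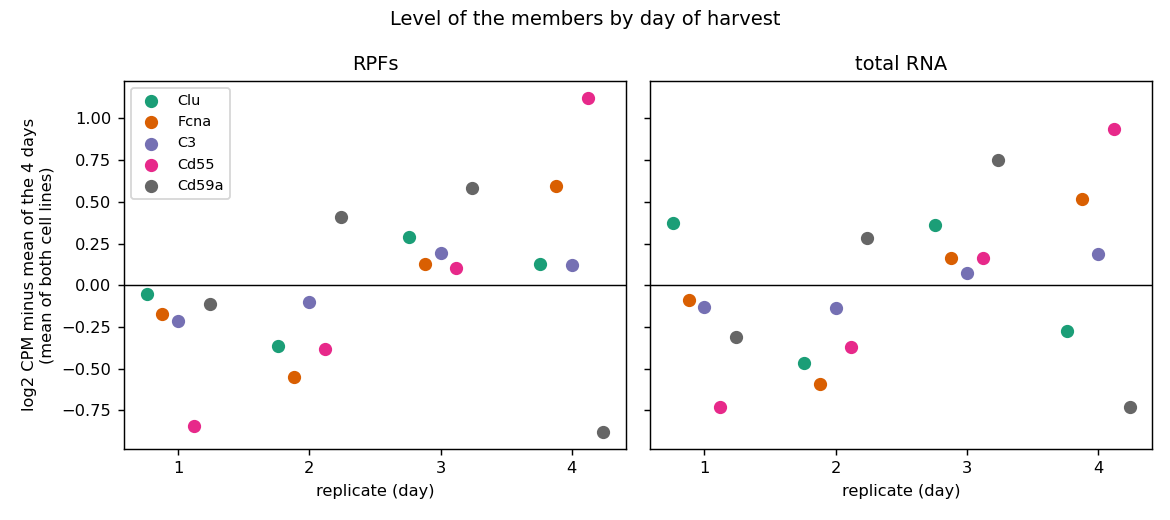
Mean log2 CPM of both cell lines on each day of harvest, relative to the mean of the 4 days, for the 5 fitted members in RPFs (left) and total RNA (right). *Cd55* spans 1.97 in RPFs and 1.67 in total RNA, and *Cd59a* is lowest on day 4, the day with 1 RPF count in KM4A2cr.

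A fixed list of 47 other complement genes showed which parts of the cascade were read at all. Of these 46 were in the tables, and 7 had enough counts in RPFs and 10 in total RNA. *C1qa* and *C1qb*, which form the recognition part of the first component, had 0 counts in both kinds, as had the mannose-binding lectin *Mbl2* and the terminal component *C7*. Among 9 genes for recognition molecules, 7 had no RPF count at all, and none of the 8 terminal and C4 components in the tables had over 17 RPF counts. What could be fitted in RPFs were mostly surface proteins and receptors, namely *Cd55b*, *Cr1l*, *C3ar1*, *Itgb2* and *C1qbp*. The protease *Masp1* and the regulator *Susd4* were fitted as well. In total RNA *Colec12*, listed among the recognition molecules, *Cd59b* and *Cd93* were fitted too, with 365, 1179 and 171 counts. *C1qbp*, a mitochondrial protein that binds C1q, and *Cr1l*, the rodent surface regulator Crry, had the highest RPF levels, 220 ± 17.7 and 155 ± 19.9 CPM in KMNTC (SD, n = 4). Neither passed (adjusted p = 0.135 and 0.860 by edgeR).

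In RPFs 2 of the 7 rose and 1 fell, beside 6.6% and 3.72% of all genes, and their median log2 fold change was 0.08. At an unadjusted p under 0.05 by edgeR were 6 of the 7, beside 2411 of all 10291 genes. *C3ar1*, the receptor for the C3a fragment, rose from 8.96 ± 3.79 to 32.2 ± 21.5 CPM (SD, n = 4), up by 1.81 on the log2 scale (SE 0.26, edgeR adjusted p = 0.0102). *Masp1*, the protease that partners with ficolins and mannose-binding lectin, fell from 15.3 ± 6.68 to 8.57 ± 4.45 CPM (-0.81, SE 0.19, edgeR adjusted p = 0.0478). *Itgb2*, the common chain of the C3 fragment receptors on leukocytes, was at -0.85 (SE 0.30, edgeR adjusted p = 0.136) and passed by DESeq2 (adjusted p = 0.0361). In total RNA 2 of 10 rose, *C3ar1* by 1.45 (adjusted p = 0.0303) and *Cd55b*, and 0 fell by edgeR, beside 4.35% and 1.78% of all genes. There 4 of the 10 had an unadjusted p under 0.05 by edgeR, beside 1995 of all 10880 genes. DESeq2 called 2 lower, *Masp1* and *Itgb2*, beside 151 of all genes. *Masp1* was at -1.06 there (edgeR adjusted p = 0.120, 0.0330 by DESeq2). For translational efficiency 0 of 7 passed by edgeR, beside 2.91% of all 9989 genes. At an unadjusted p under 0.05 were 3, beside 1410 of all genes, and DESeq2 was not run on translational efficiency. These calls changed with the replicate left out, as did those over all genes. Without replicate 3, 0 of the 7 passed in RPFs, with *C3ar1* at an edgeR adjusted p of 0.180, beside 32 of all genes. The log2 fold changes there were 1.76 for *C3ar1*, 0.84 for *Cd55b* and -0.82 for *Masp1*, close to those with all replicates. Without replicate 2 only *C3ar1* passed (0.0554), where fewer genes passed over all as well. Without replicate 4 all 7 passed, 4 of them higher, beside 3469 of 10376 genes. *Masp1* was also lost without replicate 1 (0.101). In total RNA 0 of the 10 passed without replicate 2 or without replicate 3, beside 140 of 10807 and 63 of 10928 genes. There *C3ar1* was lost without replicate 1 (0.224) as well.

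The receptors known to bind clusterin differed among themselves. Of 7 listed, 6 were fitted and *Trem2* had 0 counts. In RPFs 3 of the 6 passed by edgeR, 2 higher and 1 lower, beside 10.3% of all genes. In total RNA 3 of the 6 passed as well, again 2 higher and 1 lower, beside 6.13% of all genes. *Plxna4*, a semaphorin co-receptor, rose from 28.8 ± 10.6 to 83.1 ± 51.1 CPM of RPFs (SD, n = 4; log2 fold change 1.40, SE 0.19, edgeR adjusted p = 0.00789), and by 1.23 in total RNA (adjusted p = 0.00721). *Vldlr*, a lipoprotein receptor, rose by 0.83 in RPFs (edgeR adjusted p = 0.0195) and by 0.74 in total RNA (adjusted p = 0.0406). *Lrp2*, the large endocytic receptor megalin, fell from 209 ± 99.2 to 128 ± 94.7 CPM of RPFs (log2 fold change -0.84, edgeR adjusted p = 0.0216) and was at -0.74 in total RNA (adjusted p = 0.0303). *Lrp1* and *Lrp8* did not pass in RPFs (adjusted p = 0.161 and 0.133 by edgeR). Both passed by edgeR without replicate 4, a setting that called 3469 of 10376 genes in RPFs and 3260 of 10941 in total RNA. Their log2 fold changes there were 0.86 and 0.57 in RPFs (edgeR adjusted p = 0.00320 and 0.00384). In total RNA they were 0.96 and 0.38 (0.0172 and 0.0169). *Lrp1* also passed in RPFs by DESeq2 (adjusted p = 0.0904). *Vldlr* and *Lrp2* were lost without replicate 2 (adjusted p = 0.162 and 0.149 in RPFs by edgeR) and without replicate 3 (0.211 and 0.243), *Plxna4* without replicate 3 (0.153), and *Vldlr* also without replicate 1 (0.102). The same replicates decided these calls in total RNA, where *Plxna4* was at 0.111 without replicate 3.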

How the data were processed

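KMNTC and KM4A2cr cells were profiled for RPFs and cytoplasmic total RNA (4 replicates each). The RPF files deposited hold whole-number read counts of each transcript, made after trimming with Cutadapt 1.18, alignment to 1 transcript per gene and removal of duplicates with UMI-tools 1.0.1. For total RNA the authors deposited RSEM 1.3.3 expected counts and TPM per isoform after alignment with Bowtie2 2.3.5.1. Here the 15235 RPF transcripts were joined to genes, and expected counts were summed per gene and rounded to whole numbers (in each library 27 to 58 isoforms had a value further than 1e-09 from a whole number). A transcript missing from an RPF table was taken as 0.

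Genes passing filterByExpr (minimum count 10) were tested with edgeR 4.0.16 (TMM, quasi-likelihood test, Benjamini-Hochberg over all tested genes, threshold 0.1) in R 4.3.3, the terms being cell line and replicate number. Translational efficiency was the interaction of line and kind of library over 16 libraries. Replicates were independent experiments on different days, and their numbers pair the libraries: deviations of the 2 lines from their means correlated at 0.763, 0.782, 0.575 and 0.687 in RPFs and at 0.756, 0.736, 0.611 and 0.708 in total RNA. The 2 kinds were normalised separately. CPM are TMM-normalised, and no intervals are given for low counts.

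The members and lists were chosen with earlier results of these data known. Named genes are the members, the called genes and 2 most abundant genes of the fixed lists, the paralogues, the genes nearest to *Clu* and *Fcna* in rank or pattern, and *Eif4a2*. A gene of the clusterin receptor list is not reported here. Footprint density on the mRNA used the deposited transcript length where coding length had been planned. Alternatives were DESeq2 1.42.0, other scaling, a minimum count of 1, no replicate block and each replicate left out. Each test was tried on simulated counts. A planned test of isoform shares was not run, since 6 members have 1 isoform in the files and the rest too few counts.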

Additional observations from a re-analysis of the deposited data

How the results depend on the processing

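Called genes depended most on the replicates and on the block. Without the replicate block no gene passed by edgeR in RPFs, total RNA or translational efficiency (0 each, with 365, 362 and 498 at an unadjusted p under 0.05), nor did any other complement gene (0 in RPFs and 0 in total RNA). Leaving out 1 replicate gave 32 to 3469 called genes in RPFs, 63 to 3260 in total RNA and 10 to 673 in translational efficiency, lowest without replicate 3 in RPFs and total RNA and without replicate 1 in translational efficiency, and highest without replicate 4 in each. Among other complement genes it gave 0 to 7 in RPFs and 0 to 4 in total RNA. Scaling by library size only gave 1619 called genes in RPFs (482 higher, 1137 lower), 1130 in total RNA (262 higher, 868 lower) and 132 in translational efficiency, and moved the median over all genes to a log2 fold change of -0.14 in RPFs and -0.15 in total RNA. It called 5 other complement genes in RPFs, and DESeq2 called 4 in total RNA. The cause of these shifts was not tested.

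Fold changes of the 5 fitted members moved by less than the spread between replicates in all alternatives run. *Fcna* stayed between 2.16 and 2.45 in RPFs and between 2.00 and 2.41 in total RNA, and *Cd55* between 0.65 and 0.84 and between 0.56 and 0.79. *C3* ran from -0.77 to -0.31 in RPFs, *Clu* from 0.10 to 0.34, and *Cd59a* from -0.67 to 0.09. *Cd55* did not pass without replicate 2, without replicate 3 or without the block. Without replicate 4, *Clu* passed as higher in RPFs and total RNA and as lower in translational efficiency, and *C3* passed as lower in total RNA. Since the contrast chose the members, nothing is read from these calls. Of 80 alternative day tests of members, 68 kept their side of the threshold, 7 lost it and 5 gained it. DESeq2 was not run for translational efficiency. The depth limits *Cfb*, *C1s1*, *C1ra* and *Serping1*, with at most 9 counts in any RPF library.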

Other observations

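A fixed list of 22 acute phase and inflammatory genes, which in liver and lung often accompany C3, was also followed. In RPFs 13 were fitted and 0 passed by edgeR or DESeq2, beside 1062 and 958 of all 10291 genes. At an unadjusted p under 0.05 were 4 by edgeR and 1 by DESeq2, beside 2411 and 1824 of all genes. The secreted acute phase genes *Saa1*, *Saa2*, *Hp* and *Orm1* had between 0 and 3 RPF counts over the 8 libraries, and *Lbp* and *Cp* had 19 and 77. *Saa3* had 0 RPF counts but 298 counts of total RNA. *Lcn2*, a secreted siderophore binder, had 65.6 ± 48.8 CPM of RPFs in KMNTC and 38.19 ± 15.0 CPM in KM4A2cr (SD, n = 4, log2 fold change -0.43, SE 0.39). *Il6st*, the shared receptor chain of the interleukin 6 family, was the most abundant with 176 ± 58.4 and 225 ± 63.8 CPM (0.38, SE 0.15, edgeR adjusted p = 0.173). In total RNA 2 of 12 rose, beside 4.35% of all genes. These were *Lifr*, the receptor for leukaemia inhibitory factor, up by 0.93 (edgeR adjusted p = 0.0111), and *Socs3*, a feedback inhibitor of cytokine signalling, up by 0.69 (edgeR adjusted p = 0.0959). Only *Lifr* passed by DESeq2, and by edgeR it was lost without replicate 3 (adjusted p = 0.110), while *Socs3* passed in 4 of 9 alternatives. *Cebpb*, which encodes a C/EBP factor, was at -0.30 in RPFs (edgeR adjusted p = 0.501). Without replicate 4 it was at -0.63 (edgeR adjusted p = 0.00614), and without replicate 1 at -0.08. Leaving out replicate 4 raised the number called in the list to 3 in RPFs (*Cebpb*, *Il6st* and *Nfkbiz*) and to 5 in total RNA (*Cebpb*, *Cebpd*, *Il6st*, *Lifr* and *Socs3*), by edgeR. Over all genes that setting called 3469 of 10376 in RPFs and 3260 of 10941 in total RNA, so the rise was not particular to this list.

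The genes whose RPF levels followed those of *Clu* most closely over the 8 libraries were *Rtn3*, *Ddost* and *Ganab*, with Pearson's r of log2 CPM of 0.985, 0.981 and 0.977. *Ddost* and *Ganab* encode proteins of the endoplasmic reticulum that act in N-glycosylation. For *Fcna* they were *Ptafr* (0.989), *Nbl1* (0.984) and *Cdh13* (0.970), which were all higher in KM4A2cr, at 5.66 and 25.6, 31.4 and 101, and 4.70 and 19.9 CPM. These are the highest of 10290 genes over libraries that share days and cell lines, and they are a description.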
